A study of Mus musculus with 4 samples.

Results

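Cpt2, which encodes carnitine palmitoyltransferase 2, and 8 other genes of mitochondrial fatty acid oxidation were examined across 4 microarray libraries of mouse mDCT cells. The other genes were Cpt1a, Acadvl, Acadl, Acadm, Hadha, Hadhb, Acaa2 and Etfdh. They were taken by name: a probe set was used if the platform annotation gave it exactly 1 gene symbol and that symbol was on the list. This gave 18 probe sets for the 9 genes, of 18193 genes measured in all. The brightest probe set of a gene, by mean log2 signal, leads here, and its other probe sets are given beside it. All 9 leading probe sets passed a filter on low signal, set at the median probe set's level (signal 55.9), and so did those of 11057 genes in all. Of the 18 probe sets 15 passed. The set was chosen by the Cpt2 differences between each aldosterone dose and ethanol in these same libraries, so all its values are given as a description.

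mDCT cells are immortalised cells from the mouse distal convoluted tubule, a kidney segment that reabsorbs sodium and responds to aldosterone. All 4 libraries came from cells transfected with a plasmid for a FLAG-tagged human mineralocorticoid receptor (MR), so each value is one from cells that overexpress the receptor, and untransfected cells were not analysed here. The first library was from cells given 5 µM spironolactone, an MR antagonist, 48 h after transfection, and 100 nM aldosterone 2 h later for 3 h. This library is called spironolactone plus aldosterone, and spironolactone alone was not analysed here. The other libraries form a dose series: ethanol vehicle, 1 nM aldosterone and 100 nM aldosterone, for 3 h. Each treatment had 1 library, so replicate error is unknown, treatments could not be tested against each other, and every difference is one between libraries. In such bulk RNA, fewer cells with a transcript and less of it per cell cannot be told apart.

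Long-chain fatty acids cannot cross the inner mitochondrial membrane as acyl-CoA. Carnitine palmitoyltransferase 1 on the outer membrane passes the acyl group to carnitine, a translocase carries the acylcarnitine inward, and carnitine palmitoyltransferase 2 on the inner membrane remakes acyl-CoA in the matrix. There the chain is shortened in repeated cycles of dehydrogenation, hydration, a second dehydrogenation and thiolysis, and electrons pass through the electron transfer flavoprotein to ubiquinone. Kidney tubules draw much of their energy from this pathway, which nuclear receptors of the PPAR and estrogen-related families regulate in many tissues.

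The sequences upstream of 2 transcription starts are shown because the results turn on Cpt2, the gene with the widest spread, and on Hadha and Hadhb, a pair that shares 1 upstream region. The starts of Hadha and Hadhb lie 273 bases apart on opposite strands, so the Hadhb window is the stretch between them. Both windows are the 250 bases before the start, from RefSeq on GRCm38.p6, written 5′ to 3′ on the gene's strand, with matches to the GC box GGGCGG on either strand in capitals. The Cpt2 window is chr4:107923590-107923839 on the minus strand and the Hadhb window is chr5:30155003-30155252 on the plus strand.
Cpt2: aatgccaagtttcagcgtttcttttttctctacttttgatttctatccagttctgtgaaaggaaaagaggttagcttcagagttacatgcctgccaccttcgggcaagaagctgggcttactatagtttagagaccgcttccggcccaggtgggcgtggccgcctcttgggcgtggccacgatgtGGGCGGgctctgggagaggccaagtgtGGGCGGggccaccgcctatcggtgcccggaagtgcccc
Hadhb: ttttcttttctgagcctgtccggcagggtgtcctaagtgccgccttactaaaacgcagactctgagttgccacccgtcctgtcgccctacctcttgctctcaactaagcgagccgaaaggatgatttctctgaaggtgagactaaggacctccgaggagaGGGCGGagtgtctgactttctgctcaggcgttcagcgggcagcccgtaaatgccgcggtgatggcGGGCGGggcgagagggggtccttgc

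The GC box, the motif of Sp1-type factors, matched 2 times in the Cpt2 window and 2 times in the Hadhb window. Of all 32851 upstream windows in the RefSeq table, 32.7% held it, and 5 of the 8 windows of these genes did (Cpt2, Cpt1a, Acadl, Hadha and Hadhb). The Hadha and Hadhb windows overlap for most of their length, so they are not independent in these counts. Acaa2 had no window in the table. The steroid receptor half-site TGTTCT, which the MR and the glucocorticoid receptor recognise in pairs, matched in 0 of the 8 windows and in 16.1% of all windows. The full palindrome, AGAACA and TGTTCT with 3 bases between them, matched in 0 of the 8 and in 0.00913% of all windows. The nuclear receptor half-site AGGTCA matched in the Acadm, Acadvl and Cpt1a windows and in 14% of all windows. Its extension AAGGTCA, used by estrogen-related receptors, matched in Acadm alone among the 8 and in 4.08% of all windows, and it lies within the AGGTCA match. The direct repeat of AGGTCA with 1 base between copies, used by PPAR and RXR pairs, and the E-box CACGTG each matched in 0 of the 8, against 0.0335% and 6.02% of all windows. Both strands were searched for each motif, and a match or its absence says only which letters stand in the window.

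Across all probe sets the trimmed mean signal was 500.0 in each library and the medians lay between 58.9 and 61.7. The 3′ to 5′ signal ratio of the actin control lay between 1.26 and 1.33 and that of Gapdh between 0.741 and 0.783. Of 8 measured distal convoluted tubule markers 5 passed the filter (Pvalb, Trpm6, Wnk4, Wnk1 and Egf). The signals of all 8 summed to 8761 with spironolactone plus aldosterone and to 7355, 8004 and 7396 in ethanol, 1 nM and 100 nM aldosterone, and Wnk1 alone made up 8372, 6887, 7413 and 6878 of these. Wnk4 had 159 with spironolactone plus aldosterone, its lowest library, and 207 in ethanol. The segment's defining sodium chloride cotransporter Slc12a3 did not pass, with signals between 3.93 and 17.2 in its brighter probe set. Of 5 epithelial markers 1 passed, Epcam, with signals between 137 and 175. The epithelial cadherin Cdh1 and the keratins Krt8, Krt18 and Krt7 did not. Of 7 proximal tubule markers 5 passed, and all 7 summed to between 2873 and 3229, most of it Aqp1. The fibroblast list had 1 of 6 (Vim), the endothelial list 1 of 4 (Kdr) and the leukocyte list 2 of 4 (Cd68 and Cd14). All 6 fibroblast markers summed to between 21696 and 23956, the largest sum of any list, nearly all of it Vim. The 4 leukocyte markers summed to between 991 and 1072, most of it Cd14. All 4 endothelial markers together summed to 130 with spironolactone plus aldosterone, 94.6 in ethanol, 126 with 1 nM and 138 with 100 nM aldosterone, with ethanol lowest as in Cpt2. Kdr had 83.1 of this with spironolactone plus aldosterone, 51.1 in ethanol, under the filter, 73.1 with 1 nM and 85.1 with 100 nM aldosterone. Their part in the Cpt2 result was not tested. Sgk1, the hormone-responsive kinase that sustains the epithelial sodium channel, had signals of 1424 with spironolactone plus aldosterone, 801 in ethanol, 935 with 1 nM and 1810.4 with 100 nM aldosterone.

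Cpt2 stood apart from the other 8 genes in the size of its spread. Its leading probe set had a signal of 509 with spironolactone plus aldosterone, 261 in ethanol, 612 with 1 nM aldosterone and 475 with 100 nM aldosterone. Ethanol was the low library and the other 3 lay above it, between 475 and 612. Against ethanol, Cpt2 was 2.34-fold higher with 1 nM aldosterone, 1.82-fold higher with 100 nM aldosterone and 1.95-fold higher with spironolactone plus aldosterone, log2 differences of 1.23, 0.86 and 0.96. These 3 comparisons share the ethanol library and so are not independent of each other.

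Between the libraries that received aldosterone, Cpt2 differed much less. With spironolactone plus aldosterone it was 1.07-fold higher than with 100 nM aldosterone alone, a log2 difference of 0.10. With 100 nM aldosterone it was 1.29-fold lower than with 1 nM (-0.36), so its signal did not follow the dose. Sgk1 had the reverse order between the doses, 0.95 higher on the log2 scale with 100 nM than with 1 nM. Per1, a clock gene that corticosteroids induce, was higher by 1.24 and Tsc22d3, which encodes the steroid-induced leucine zipper protein GILZ, by 0.96 in that comparison. These 3 hormone-responsive genes were lower with spironolactone plus aldosterone than with 100 nM aldosterone alone. The differences were -0.35 for Sgk1, -0.59 for Per1 and -0.46 for Tsc22d3. Against ethanol they were still higher with spironolactone plus aldosterone, by 0.83, 0.60 and 0.48 in the same order. With 1 nM aldosterone their differences from ethanol were 0.22, -0.04 and -0.02. The Cpt2 difference between spironolactone plus aldosterone and 100 nM aldosterone, 0.10, was no larger than the median size over the 11057 genes, 0.11.

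The Cpt2 range over the 4 libraries was 1.23 on the log2 scale, where the median range of the 11057 genes was 0.22. It ranked 173 of 11057, and 4 of the 6936 genes whose mean log2 signal lay at or above the 75th percentile of all probe sets (a signal of 419.8), a bound that Cpt2 passed narrowly with a geometric mean signal of 443. Among these brighter genes its difference from ethanol ranked 1 at 1 nM aldosterone, 7 at 100 nM and 3 with spironolactone plus aldosterone. Among all 11057 genes the same differences ranked 44, 117 and 54. Its gap between ethanol and the next lowest library, 0.86, was the largest of that kind among the brighter genes and ranked 29 among all. Cpt2 was chosen by its differences from ethanol, and its ethanol signal of 261 lay under the bound, so nothing is read from these ranks. The ethanol library was lowest by at least 1.5-fold in 2 of the 6936 brighter genes, Cpt2 and Tatdn1, and the libraries with spironolactone plus aldosterone, 1 nM and 100 nM aldosterone were lowest by that much in 3, 2 and 4. Among all 11057 genes the count for ethanol was 79, against 73, 52 and 52 for the others in the same order.

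A second Cpt2 probe set did not pass the filter and did not share this order. Its signals were 37.6 with spironolactone plus aldosterone, 32.2 in ethanol, 20.2 with 1 nM and 88.9 with 100 nM aldosterone. Its lowest library was 1 nM aldosterone, the library in which the leading probe set was highest. The suffix x marks probe sets whose probes can match other transcripts. The Cpt2 result therefore rests on 1 probe set on 1 array per treatment. Czib, the nearest measured neighbour of Cpt2 on the chromosome, had signals of 551 with spironolactone plus aldosterone, 603 in ethanol, 574 with 1 nM and 601 with 100 nM aldosterone. Its differences from ethanol were -0.13 with spironolactone plus aldosterone, -0.07 with 1 nM and -0.01 with 100 nM, by its leading probe set. The other Czib probe sets above the filter differed from ethanol by between -0.46, with 1 nM, and 0.14, with 100 nM. In none of these probe sets was ethanol lowest, so Czib did not have the low ethanol value of Cpt2. The neighbour on the other side, Gm40221, was not analysed here.

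**Figure D1:**
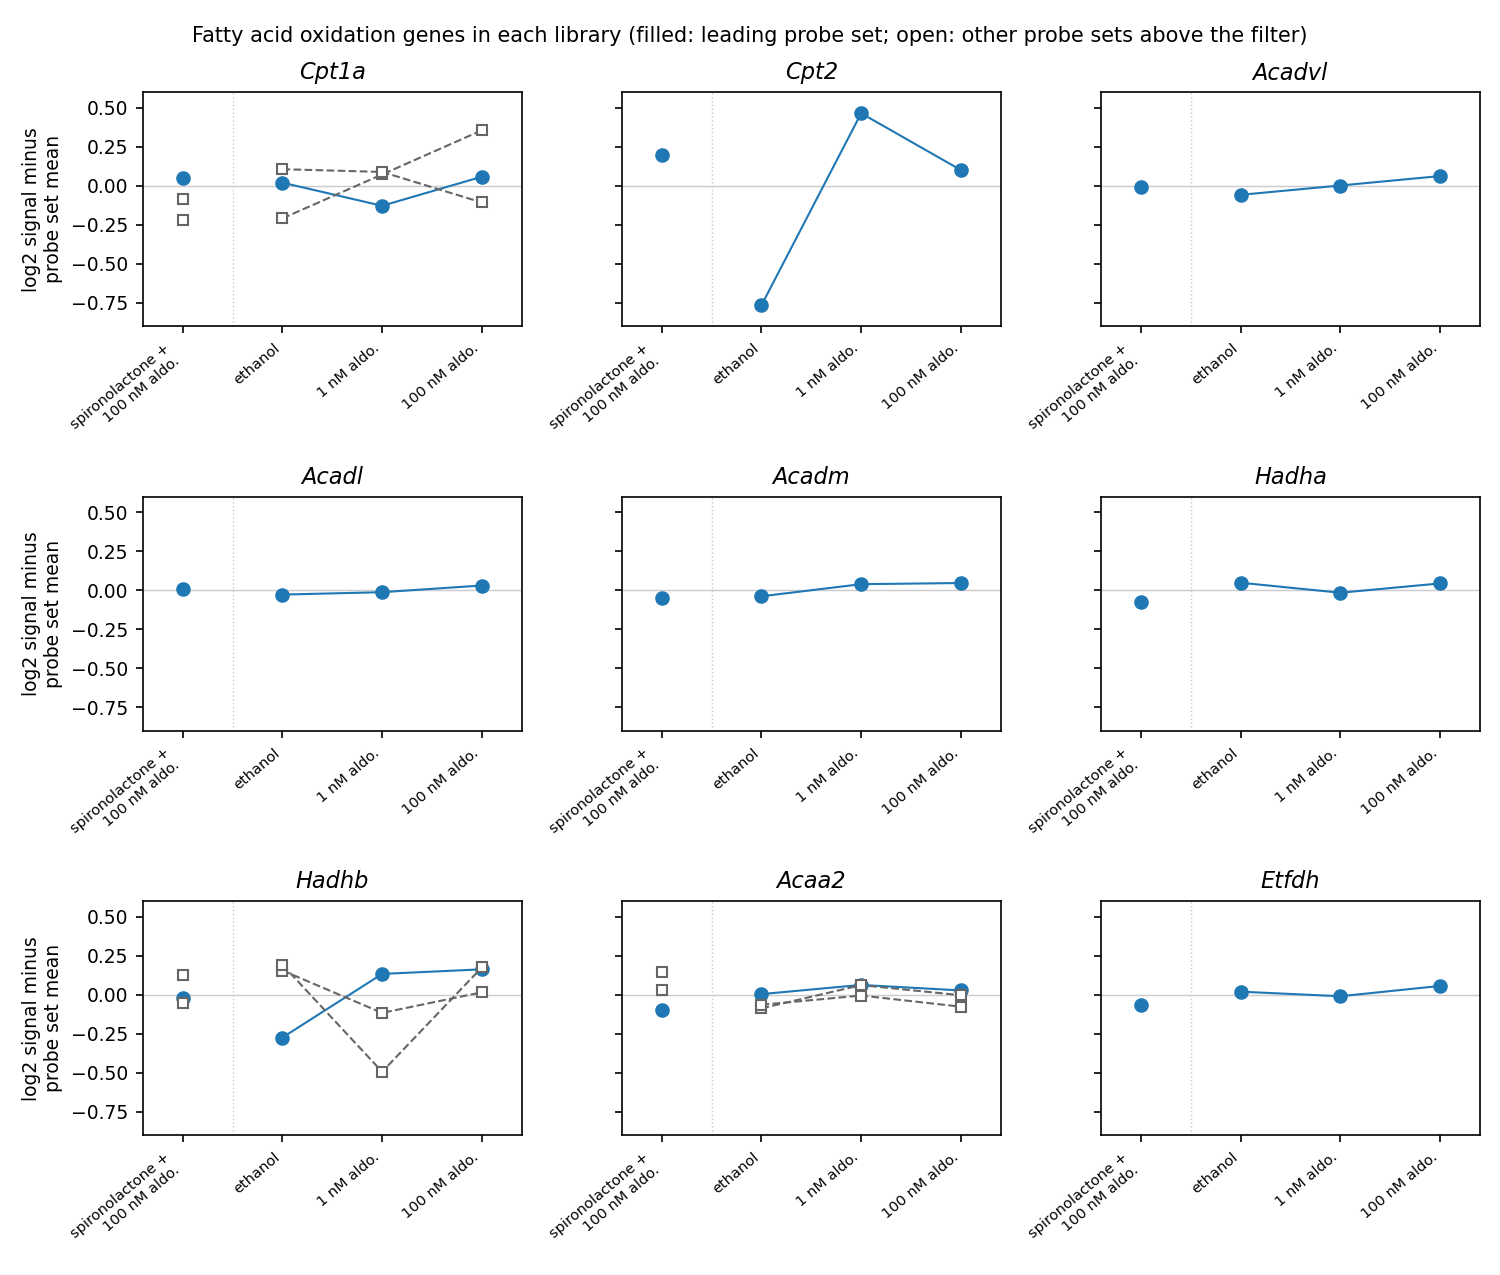
Signal of each gene in each library, as the log2 signal minus the probe set's own mean over the 4 libraries (vertical axis), for leading probe sets (filled) and other probe sets above the filter (open); lines join the dose series. Cpt2 spans 1.23 with ethanol lowest, the probe sets of Hadhb and of Cpt1a go different ways, and the remaining genes stay within 0.22.

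Cpt1a, the malonyl-CoA-sensitive enzyme at which long-chain fatty acid entry is controlled, was measured by 3 probe sets that passed the filter. The leading one had signals of 1079.8 with spironolactone plus aldosterone, 1057 in ethanol, 954 with 1 nM and 1085 with 100 nM aldosterone. Its lowest library was 1 nM aldosterone, and its range was 0.19. The second probe set had signals of 202 with spironolactone plus aldosterone, 203 in ethanol, 247 with 1 nM and 299.97 with 100 nM aldosterone. In this probe set 100 nM aldosterone was 0.56 above ethanol and spironolactone plus aldosterone was 0.57 below 100 nM aldosterone alone, with log2 differences of 0.56 and -0.57. The dimmest probe set had 137 with spironolactone plus aldosterone, 157 in ethanol, 155 with 1 nM and 135 with 100 nM aldosterone, and its difference between 100 nM aldosterone and ethanol was -0.21. Both probe sets other than the leading one carry the x suffix, and no direction common to the 3 probe sets was seen at 100 nM against ethanol. Slc25a20, the translocase between both transferases, had signals of 1174 with spironolactone plus aldosterone, 1232 in ethanol, 1215 with 1 nM and 1125 with 100 nM aldosterone. It was added after its values were seen, as the step next to Cpt2, and its largest difference from ethanol was -0.13, with 100 nM aldosterone. Its second probe set went the other way, by 0.08 with 1 nM, 0.07 with 100 nM and 0.10 with spironolactone plus aldosterone.

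The acyl-CoA dehydrogenases carry out the first step of each cycle on chains of different length. Acadvl, the very long-chain enzyme, had signals of 3143 with spironolactone plus aldosterone, 3031 in ethanol, 3159 with 1 nM and 3294 with 100 nM aldosterone. Acadl, the long-chain enzyme, had 7461 with spironolactone plus aldosterone, 7273 in ethanol, 7351 with 1 nM and 7572 with 100 nM aldosterone. Acadm, the medium-chain enzyme, had 2725 with spironolactone plus aldosterone, 2742 in ethanol, 2893 with 1 nM and 2908 with 100 nM aldosterone. All 3 were highest with 100 nM aldosterone, by log2 differences from ethanol of 0.12, 0.06 and 0.08, and their ranges of 0.12, 0.06 and 0.09 were below the median range of all genes. The range of Acadl was the smallest of the 9 genes, and 4.48% of all genes had a smaller one.

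Hadha and Hadhb encode the subunits of the trifunctional protein, which carries out the last 3 steps of each cycle on long chains. Hadha, the hydratase and dehydrogenase subunit, had signals of 937 with spironolactone plus aldosterone, 1022 in ethanol, 977 with 1 nM and 1019 with 100 nM aldosterone, a range of 0.12. Hadhb, the thiolase subunit, had 3842 with spironolactone plus aldosterone, 3229 in ethanol, 4281 with 1 nM and 4369 with 100 nM aldosterone in its leading probe set. In that probe set, ethanol was lowest, as in Cpt2, and the log2 differences from ethanol were 0.41 with 1 nM, 0.44 with 100 nM and 0.25 with spironolactone plus aldosterone.

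The second Hadhb probe set, almost as bright, went the other way. It had signals of 3600.4 with spironolactone plus aldosterone, 4166 in ethanol, 3452 with 1 nM and 3782 with 100 nM aldosterone, so ethanol was its highest library. Its differences from ethanol were -0.27 with 1 nM, -0.14 with 100 nM and -0.21 with spironolactone plus aldosterone. The remaining, dim probe set had 69.6 with spironolactone plus aldosterone, 72.9 in ethanol, 45.3 with 1 nM and 72.0 with 100 nM aldosterone, and ethanol was its highest library too. The leading probe set has the x suffix. Of the 3 probe sets, 1 was higher in the other libraries than in ethanol and 2 were lower, so no direction is given for Hadhb.

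Acaa2, the mitochondrial thiolase of shorter chains, had signals of 999 with spironolactone plus aldosterone, 1070.2 in ethanol, 1115 with 1 nM and 1088 with 100 nM aldosterone in its leading probe set. The differences from ethanol were 0.06 with 1 nM and 0.02 with 100 nM. With spironolactone plus aldosterone the leading probe set was -0.10 from ethanol, while the other probe sets were higher by 0.11 and 0.21. Etfdh, the oxidoreductase that hands electrons from the flavoprotein to ubiquinone, had 2089 with spironolactone plus aldosterone, 2219 in ethanol, 2174 with 1 nM and 2276 with 100 nM aldosterone, a range of 0.12. The genes of the flavoprotein itself, Etfa and Etfb, added after their values were seen, differed from ethanol by at most 0.07 in size in the other 3 libraries.

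Counted at 1.5-fold with the leading probe sets, Cpt2 was the only one of the 9 genes that differed from ethanol by that much. With 1 nM aldosterone 1 of 9 was higher and 0 lower, where 2.61% of all entered genes were higher and 2.07% lower. With 100 nM aldosterone 1 of 9 was higher and 0 lower, where 2.39% and 1.72% were. With spironolactone plus aldosterone 1 of 9 was higher and 0 lower, where 2.17% and 2.03% were. The set was chosen with these values known, so nothing is read from the count. For spironolactone plus aldosterone against 100 nM aldosterone the counts were 0 higher and 0 lower, where 1.83% and 2.51% were, and for 100 nM against 1 nM aldosterone 0 and 0, where 2.04% and 1.96% were. At 2-fold, 1 of 9 (Cpt2) was higher with 1 nM aldosterone than in ethanol and 0 lower, where 0.651% and 0.353% of all entered genes were. With 100 nM aldosterone 0 and 0 were, where 0.742% and 0.371% were, and with spironolactone plus aldosterone 0 and 0, where 0.416% and 0.452% were. Against 100 nM aldosterone, spironolactone plus aldosterone gave 0 and 0, where 0.38% and 0.543% were, and 100 nM against 1 nM gave 0 and 0, where 0.416% and 0.416% were.

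The median log2 difference of the 9 genes from ethanol was 0.06 at 1 nM, 0.06 at 100 nM and 0.03 with spironolactone plus aldosterone, where the medians of all entered genes were -0.01, -0.00 and -0.01. Without Cpt2 the medians were 0.04, 0.05 and 0.01. For spironolactone plus aldosterone against 100 nM aldosterone the median was -0.09. By leading probe sets, 8 of the 9 genes, all but Cpt2, were below 0, by 0.19 or less. Below 0 were also 5601 of all 11057 entered genes and 3364 of the 6936 brighter genes. Among other probe sets above the filter, those of Acaa2 (0.03 and 0.22) and the dimmest of Cpt1a (0.02) were above 0. The second Cpt1a probe set (-0.57) and the other Hadhb probe sets (-0.07 and -0.05) were below it. The median size of a difference in that comparison was 0.11 over all entered genes and 0.08 over the brighter genes, to which all 9 belong, where the median size over these 8 genes was 0.11. Leaving out Cpt2 and Hadhb, the remaining 7 genes had ranges over the 4 libraries between 0.06 and 0.19.

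**Figure D2:**
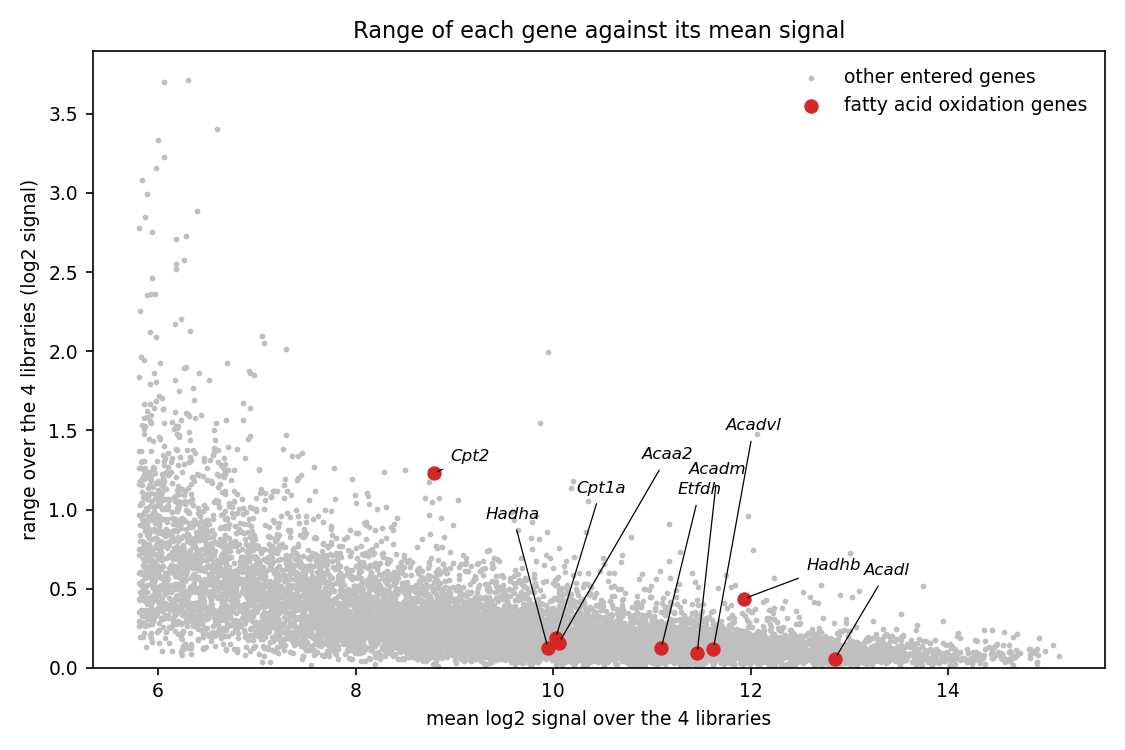
Range over the 4 libraries (highest minus lowest log2 signal, vertical axis) against mean log2 signal (horizontal axis) for 11057 genes, with the 9 fatty acid oxidation genes in red by their leading probe sets. Cpt2, at a range of 1.23, lies above nearly all genes of its signal, Hadhb lies at 0.44, and the other 7 lie at 0.19 or below; dim genes at the left have wide ranges.

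The surrounding pathway was described with 6 further lists holding 122 genes, of which 85 passed the filter. Against ethanol, 3 of 85 genes (3.53%) passed 1.5-fold upward at 1 nM aldosterone (Crat, Acad12 and Ucp3), 2 (2.35%) at 100 nM (Acad10 and Ucp3) and 4 (4.71%) with spironolactone plus aldosterone (Acad12, Ppard, Angptl4 and Ucp3). Of all entered genes, 2.61%, 2.39% and 2.17% were higher by that much in the same comparisons. None of the 85 was lower by that much, where 2.07%, 1.72% and 2.03% of all entered genes were. The counts here use leading probe sets. The next brightest Slc27a1 probe set, above the filter, was lower by that much (-0.61, -0.91 and -1.19 in the same order). Those of Dgat1 and Prkaa2 were with 1 nM (-0.77 and -0.72) and with spironolactone plus aldosterone (-0.65 and -0.61). Such probe sets of Rxra, Pecr and Bdh1 were higher by that much in at least 1 comparison. With spironolactone plus aldosterone 1 of 85 (1.18%), Ppard, was higher than with 100 nM aldosterone alone, where 1.83% of all entered genes were. The medians over the 85 genes were 0.03, 0.04 and -0.02 from ethanol in the order above, and -0.03 against 100 nM aldosterone.

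In the carnitine shuttle and acyl-CoA entry list, 11 of 18 genes entered, with medians from ethanol of 0.02 with 1 nM, -0.02 with 100 nM and -0.06 with spironolactone plus aldosterone. Crat, which transfers short acyl groups to and from carnitine, had signals of 453 with spironolactone plus aldosterone, 369 in ethanol, 569 with 1 nM and 459.8 with 100 nM aldosterone. It was lowest in ethanol and highest with 1 nM, as Cpt2 was, and 1.54-fold higher with 1 nM than in ethanol. Its leading probe set has the x suffix, and the second probe set had a difference of -0.03 between these libraries. By their leading probe sets, the acyl-CoA synthetases, which activate fatty acids for entry, differed from ethanol by 0.24 or less in size. Acsl4 differed by 0.24 with 1 nM, Acsl5 by -0.22 with 100 nM and Acsl6 by 0.22 with 100 nM aldosterone. The second Acsl3 probe set, above the filter, differed by 0.26 with 1 nM, -0.23 with 100 nM and -0.20 with spironolactone plus aldosterone.

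All 24 genes of the list of other mitochondrial beta-oxidation enzymes entered, with medians of 0.04 with 1 nM, 0.06 with 100 nM and -0.02 with spironolactone plus aldosterone. Acad12, an acyl-CoA dehydrogenase family gene, had signals of 116 with spironolactone plus aldosterone, 54.1 in ethanol, 87.4 with 1 nM and 77.9 with 100 nM aldosterone. Its ethanol signal lay under the filter, so with that signal raised to the filter it was at least 2.07-fold higher with spironolactone plus aldosterone and at least 1.56-fold higher with 1 nM. Acad10 had 84.2 with spironolactone plus aldosterone, 67.2 in ethanol, 92.0 with 1 nM and 126 with 100 nM aldosterone, where it was 1.87-fold higher than in ethanol. Both genes are dim, and dim genes had wide ranges in the plot of range against signal. Ivd, the dehydrogenase of leucine breakdown, was lower with 100 nM aldosterone than in ethanol by -0.43, but its next probe set differed by 0.35. Acadsb, a dehydrogenase of isoleucine breakdown, was lower than in ethanol by -0.38 with 100 nM aldosterone.

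In the peroxisomal list, 12 of 19 genes entered, none past 1.5-fold by its leading probe set. The next brightest Pecr probe set, above the filter, differed from ethanol by 0.67 with 1 nM, 0.63 with 100 nM and 0.81 with spironolactone plus aldosterone. The leading Pecr probe set differed by 0.05, 0.10 and 0.15. Acaa1a, the peroxisomal thiolase, had signals of 269 with spironolactone plus aldosterone, 234 in ethanol, 322 with 1 nM and 343 with 100 nM aldosterone, with ethanol lowest. Its differences from ethanol were 0.46 with 1 nM and 0.56 with 100 nM, where its next brightest probe set had -0.08 and -0.57. Hacl1, which shortens branched chains in alpha-oxidation, was lower with spironolactone plus aldosterone (232) than with 100 nM aldosterone alone (328), a log2 difference of -0.50.

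Of the regulators, 22 of 29 genes entered, and Ppard, the PPAR delta receptor, was the only one past 1.5-fold by its leading probe set. The next brightest Rxra probe set, above the filter, differed from ethanol by 1.19 with 1 nM, 0.53 with 100 nM and 1.17 with spironolactone plus aldosterone. The leading Rxra probe set differed by -0.03, -0.15 and -0.03. The next brightest Prkaa2 probe set differed by -0.72, -0.43 and -0.61 in the same order. Ppard had signals of 207 with spironolactone plus aldosterone, 127 in ethanol, 179.7 with 1 nM and 132 with 100 nM aldosterone. With spironolactone plus aldosterone it was 1.63-fold higher than in ethanol and 1.57-fold higher than with 100 nM aldosterone alone. With 1 nM aldosterone it was 1.42-fold higher than in ethanol. A link between Ppard and Cpt2 was not tested. The coactivator Ppargc1b had 152 with spironolactone plus aldosterone, 159.5 in ethanol, 146 with 1 nM and 112 with 100 nM aldosterone, a difference of -0.51 at 100 nM from ethanol. Mlycd, the malonyl-CoA decarboxylase whose action relieves Cpt1 inhibition, differed by -0.44 between spironolactone plus aldosterone and 100 nM aldosterone. Ppara, the receptor best known for inducing these enzymes, did not pass the filter.

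Among PPAR-responsive and ketone genes, 8 of 16 entered. Ucp3, a mitochondrial uncoupling protein family gene, had signals of 76.8 with spironolactone plus aldosterone, 40.3 in ethanol, 115 with 1 nM and 79.9 with 100 nM aldosterone. Ethanol was lowest and 1 nM highest, as in Cpt2, but spironolactone plus aldosterone lay below 100 nM aldosterone, where in Cpt2 it lay above. With the ethanol signal raised to the filter, Ucp3 was at least 2.06-fold higher with 1 nM, at least 1.43-fold with 100 nM and at least 1.37-fold with spironolactone plus aldosterone. Angptl4, a secreted lipase inhibitor, had 117 with spironolactone plus aldosterone, 77.3 in ethanol, 66.3 with 1 nM and 80.0 with 100 nM aldosterone, and was 1.51-fold higher with spironolactone plus aldosterone than in ethanol. The hormone Fgf21 differed by -0.56 in the same comparison. In the lipolysis and lipid droplet list, 8 of 16 entered and none passed 1.5-fold by its leading probe set. Mgll, the monoacylglycerol lipase, was higher than in ethanol by 0.50 with 100 nM aldosterone, from signals near the filter, and the droplet-associated Hilpda differed by -0.32 with spironolactone plus aldosterone. The list's median for spironolactone plus aldosterone against 100 nM aldosterone was -0.20.

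**Figure D3:**
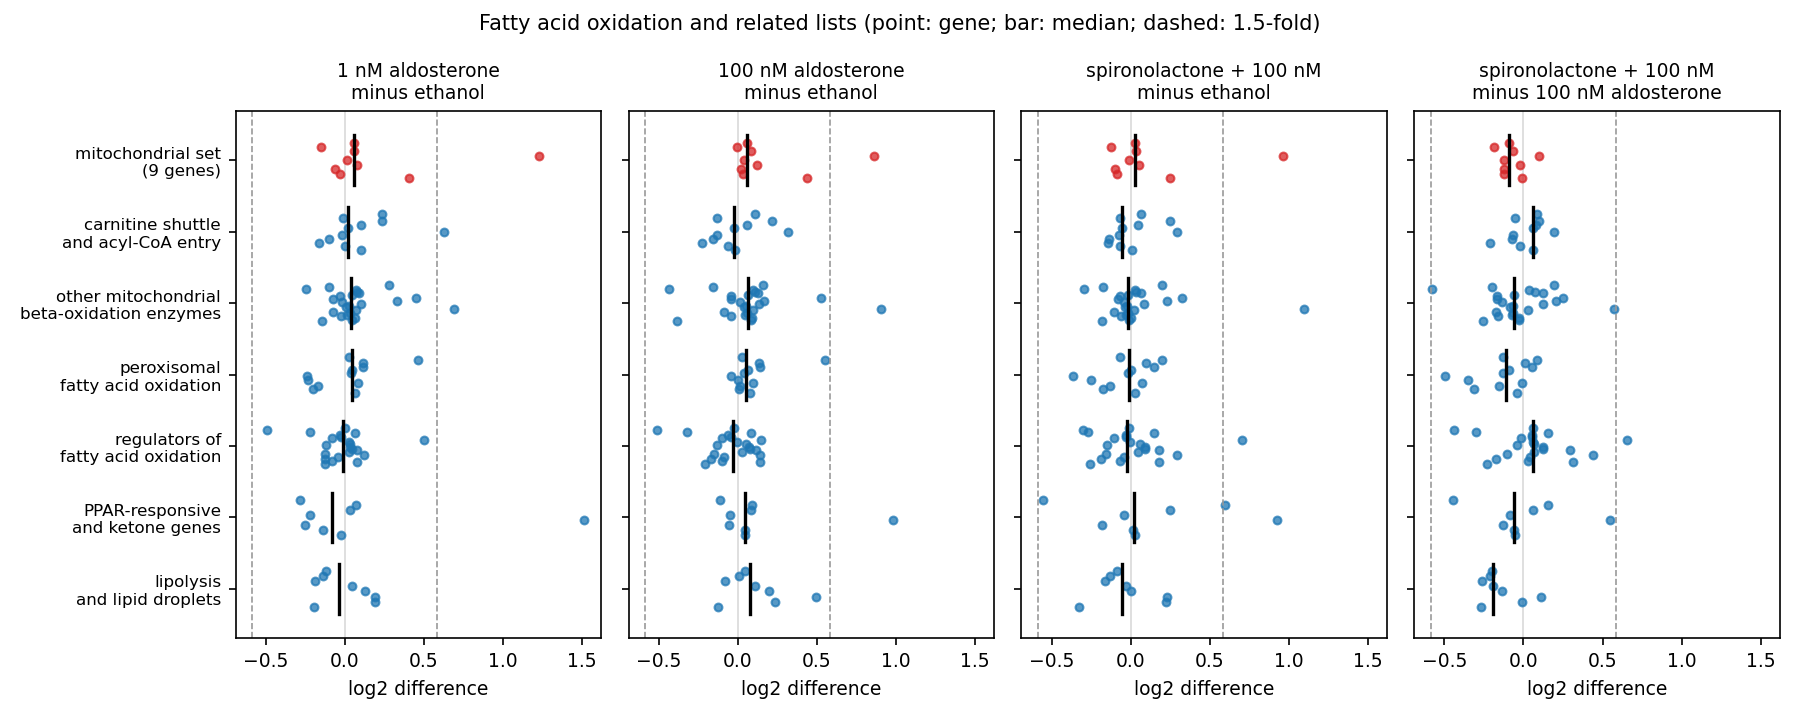
Log2 differences of entered genes (points) with their medians (bars) in the set of 9 genes (red) and 6 related lists (blue), for 1 nM aldosterone, 100 nM aldosterone and spironolactone plus aldosterone, each minus ethanol, and for spironolactone plus aldosterone minus 100 nM aldosterone. Dashed lines mark 1.5-fold; most genes lie between them, Cpt2 is the red point at 1.23, 0.86, 0.96 and 0.10, and Ucp3 the blue point at 1.52 in the first panel.

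The genes whose profiles were closest to that of Cpt2 were ranked by the root mean square difference between log2 profiles over the 4 libraries, each centred on its own mean. The first 6 were Tatdn1 (0.08), Sez6 (0.09), Prss29 (0.09), Gpatch11 (0.11), 4933433N18Rik (0.12) and Pnma2 (0.12). Tatdn1 had signals of 1461 with spironolactone plus aldosterone, 683 in ethanol, 1501 with 1 nM and 1218 with 100 nM aldosterone. Its next brightest probe set differed from ethanol by 0.37 with 1 nM, 0.58 with 100 nM and 0.18 with spironolactone plus aldosterone, smaller than the 1.14, 0.83 and 1.10 of the leading one. Pnma2 also had a second probe set above the filter, which differed from ethanol by 0.19, 0.20 and 0.01 in the same order, against 0.95, 0.55 and 0.75 in the leading one. The 5 genes after Tatdn1 were dim, with geometric mean signals between 60.5 and 124. The ethanol signals of Sez6 (48.6), Prss29 (39.1), Gpatch11 (43.0) and 4933433N18Rik (36.7) lay under the filter, so these genes entered through the libraries where they were high, and their distances and ranks are not firm. The leading probe sets of Tatdn1 and Sez6 have the x suffix. Of the other 8 fatty acid oxidation genes, Hadhb ranked 306 of 11056 by its leading probe set (0.32), and the others ranked 2671 or later. Crat ranked 147 and Sgk1 6761.

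**Figure D4:**
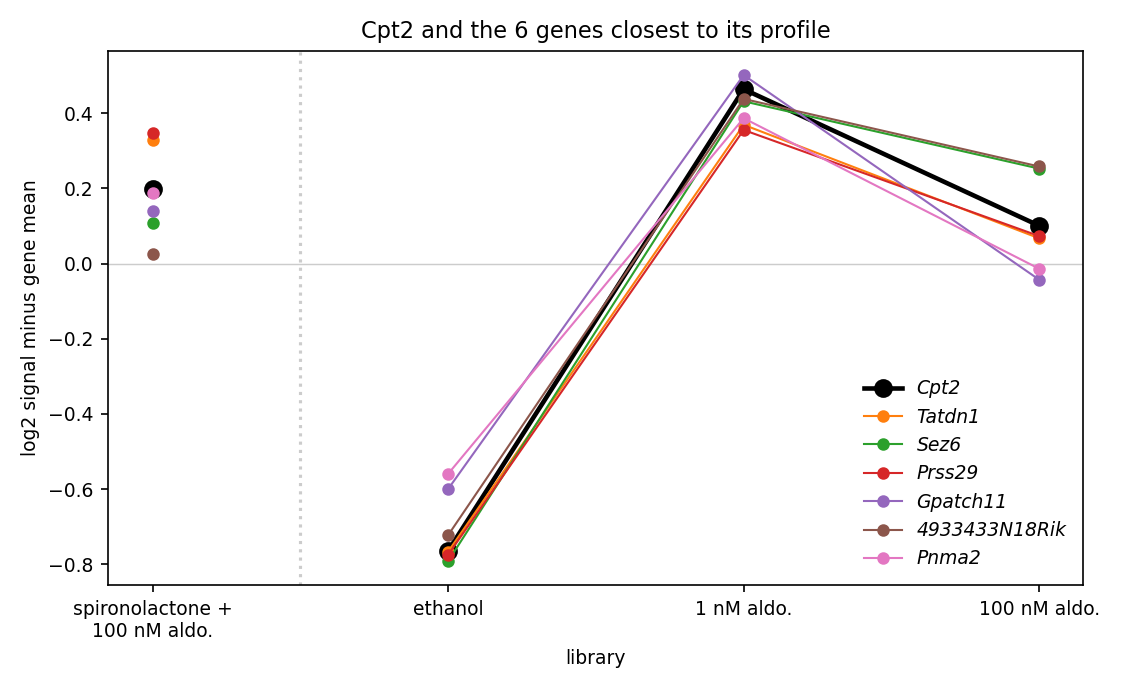
Log2 signal minus the gene's mean (vertical axis) in each library (horizontal axis) for Cpt2 (black) and the 6 genes closest to its profile; lines join the dose series. In all 7 ethanol is lowest and 1 nM aldosterone highest; the differences of Cpt2 from ethanol are 1.23 with 1 nM and 0.86 with 100 nM.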

How the data were processed

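Total RNA of 4 libraries, 1 per treatment, was hybridised to an Affymetrix mouse array. The authors deposited linear intensities per probe set, and the submitters' processing notes name MAS5. Its version and settings are not given here, and detection calls were not used. With 2% trimmed from either end, every array's mean was 500.0, so the arrays had been scaled to each other, and the intensities were not normalized further. Number of other sample columns: 0.

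Of 45101 probe sets, 64 were controls, 34945 had 1 gene symbol, 932 several and 9160 none; 34754 of those with 1 symbol matched RefSeq genes of GRCm38.p6 by Entrez identifier. Differences are of log2 intensity, with no pseudocount. The number of arrays limits the precision. Scripts (Python 3.11.15, pandas 2.3.3, numpy 2.4.6) were tested on simulated data.

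Alternatives were quantile normalization, division by the array median, an offset of 50, other probe set rules, other filters, a floor at the filter and a 2-fold size. Besides the 9 genes, the text names the 6 closest profiles, the chromosomal neighbour, 3 hormone-responsive genes and up to 5 genes per list with the largest differences. Genes and lists were chosen with earlier results of these data known.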

Additional observations from a re-analysis of the deposited data

How the results depend on the processing

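Of 367 alternative values of the 9 genes' differences and the Cpt2 range, 346 moved by no more than 0.1 on the log2 scale. The called differences, all of Cpt2, had 0 reversals, while Hadhb with 1 nM, not called, went from 0.41 to -0.27. Many values could not move, because the other filters and the floor leave the 9 leading probe sets unchanged. Other probe set rules can move only the 3 genes with more than 1 passing probe set. The count of 346 is therefore no measure of stability. The Cpt2 difference from ethanol lay between 1.09 and 1.26 with 1 nM aldosterone, 0.76 and 0.88 with 100 nM, and 0.85 and 0.995 with spironolactone plus aldosterone. The low ends came from an offset of 50, which gave 1.09, 0.76 and 0.85 and a range of 1.09. At 2-fold, 0 of the 9 genes were higher than ethanol with 100 nM aldosterone and 0 with spironolactone plus aldosterone. Taking each library's median of a gene's probe sets can set one probe set against another; it gave 0.23 for Hadhb and 0.56 for Cpt1a with 100 nM aldosterone against ethanol. The median of each probe set's own difference, an alternative chosen after seeing the data, gave -0.02 for Hadhb there and -0.27 with 1 nM, so the direction of Hadhb depends on the probe set.

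The 6 genes closest to Cpt2 depended on dim genes: 1 of them (Tatdn1) remained with a filter at the 75th percentile, 1 with an offset of 50, 3 with signals raised to the filter and 0 with no filter. Pathway genes higher by 1.5-fold with 1 nM aldosterone, 100 nM aldosterone and spironolactone plus aldosterone, each against ethanol, numbered 11, 13 and 13 of 113 with no filter (9.73%, 11.5% and 11.5%, against 14.8%, 14% and 12.9% of all 18193 genes). They numbered 1, 0 and 0 of 52 with a filter at the 75th percentile (0.317%, 0.231% and 0.202% of all 6936 genes). Of 85 genes they numbered 1, 0 and 1 with an offset of 50 (0.977%, 0.959% and 0.552% of all 11057), and 1, 0 and 1 at 2-fold (0.651%, 0.742% and 0.416%). Raising signals to the filter left 1 with 100 nM (1.94% of all). Those lower numbered 6, 5 and 8 with no filter (11.8%, 12.1% and 13.3% of all). For spironolactone plus aldosterone against 100 nM aldosterone, 6 were higher and 8 lower with no filter (12% and 14.4% of all). With the 75th percentile, the offset or 2-fold 0 were higher (0.216%, 0.633% and 0.38% of all). With the median over probe sets 2 of 85 were higher (2.35%, against 2.06% of all). After quantile normalization 1 of 85 was lower (1.18%, against 2.71% of all). For 100 nM against 1 nM aldosterone, 8 were higher and 9 lower with no filter (12.6% and 13.5% of all). In that comparison 1 of 85 was lower with the median over probe sets (1.18%, against 2.01% of all). No paired analysis was possible because each treatment had 1 library.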

Other observations

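Ucp3 ranked 8 among all genes by closeness to the Cpt2 profile, with a root mean square difference of 0.13, and is the gene of the 6 related lists that came closest. The ethanol signal of Ucp3 (40.3) lay under the filter, so it entered through the libraries where it was high, and its distance and rank are not firm. Its other probe set did not pass the filter, and differed from ethanol by 1.16 at 1 nM aldosterone, 0.03 at 100 nM and -0.16 with spironolactone plus aldosterone.

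Of the 18 probe sets of the 9 genes, 3 did not pass the filter, that of Cpt2 and 1 each of Acadl and Etfdh. The dim Etfdh probe set had signals of 3.35 with spironolactone plus aldosterone, 3.30 in ethanol, 5.73 with 1 nM and 32.5 with 100 nM aldosterone, and the dim Acadl probe set 16.6, 20.8, 33.9 and 7.66 in the same order. Both Cpt2 and Etfdh were highest with 100 nM aldosterone in their dim probe sets, and Acadl was lowest there.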
